A study of Homo sapiens with 8 samples.

Results

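*CD83*, *STAC*, *CAMK2N2*, *PTGFRN* and *YDJC* are 5 coding genes whose RNA was more than 2-fold lower in *miR-150-3p* transfected cells than in control cells of both lung squamous cell carcinoma (LUSQ) lines examined. They were selected on that measurement: a log2 ratio of transfected over control cells below -1 on the EBC-1 array and on the SK-MES-1 array. Of the 22439 genes named on the array, 12547 had both channels of both arrays well above background, and 47 of these were below -1 on both. The 5 genes are among the 47. Of the other 42, only those nearest to these 5 over the arrays are named. Each of the 5 was read by 1 probe, and all 5 probes passed the filter on dim signal in both LUSQ lines.

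Total RNA of 4 human lung cancer cell lines was measured on 8 Agilent 2-colour arrays. The question was which RNAs change with *miR-150-3p*, the passenger strand of the miR-150 duplex, and with other treatments. On every array the treated cells were labelled with Cy5 (red) and the control cells of the same line with Cy3 (green). EBC-1 and SK-MES-1, both LUSQ, were each transfected with *miR-150-3p* on 1 array. SBC-3, a small cell lung cancer line, was transfected with siDONSON-1, siDONSON-2 and siDONSON-3, small interfering RNAs against *DONSON*, on 1 array each. The labels do not say whether these numbers mark different duplexes or repeats of 1. A549, a lung adenocarcinoma line, carried CRISPR/Cas9 editing of *LOXL2* on 3 arrays called A549-GE1, A549-GE2 and A549-GE3, against A549 cells that were not edited. The labels do not say whether GE1 to GE3 are clones. The control of the transfected lines is called mock in 1 label field and not transfected in another, so the effect of an RNA duplex and that of the transfection itself cannot be told apart. No array had the dyes swapped, so treatment and dye cannot be told apart either. Each LUSQ line had 1 array and no replicate.

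A microRNA guides Argonaute proteins to messenger RNAs with partly matching sequence, which are then degraded or translated less. The 5 genes belong to no single pathway. CD83 is a cell surface protein of the immunoglobulin superfamily, best known on mature dendritic cells, where it keeps MHC class II and CD86 at the surface by opposing the ubiquitin ligase MARCHF1. PTGFRN is another membrane protein of that superfamily and binds the tetraspanins CD9 and CD81. STAC is an adaptor protein whose family binds L-type voltage-gated calcium channels. CAMK2N2 is a small protein that inhibits the calcium/calmodulin-dependent kinase CaMKII. YDJC resembles bacterial deacetylases of the YdjC family.

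Across the 8 arrays, 41.1 to 46.4% of the spots that are not controls were well above background in green and 48.5 to 56.2% in red, and no spot was saturated. *DONSON* had log2 ratios of -2.15, -1.79 and -2.11 on the siDONSON-1, siDONSON-2 and siDONSON-3 arrays. *LOXL2* was at -2.49, -2.67 and -2.59 on the A549-GE1, A549-GE2 and A549-GE3 arrays. Each target was thus low where the labels say it was treated. Elsewhere *DONSON* was at -1.02 in EBC-1 with *miR-150-3p*, and *LOXL2* at -0.81 on the siDONSON-1 array. Defining markers separated the lines only in part. In green, 1 of 6 squamous markers was well above background in EBC-1 (*SOX2*) and 3 of 6 in SK-MES-1 (*TP63*, *KRT14*, *SOX2*), while *TP63* and *SOX2* were on all 3 SBC-3 arrays and *SOX2* on all 3 A549 arrays too, and *KRT5*, *KRT6A* and *DSG3* were on no array. In SBC-3, 3 of 6 neuroendocrine markers were (*NEUROD1*, *CHGA*, *SYP*) and *INSM1* was not, and *CHGA* was on all 3 A549 arrays as well. In A549, 2 of 4 adenocarcinoma markers were (*NAPSA*, *KRT7*), as they were in both LUSQ lines, and *NKX2-1* and *SFTPB* were not.

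The values that follow are log2 ratios of treated over control cells, from background-subtracted and dye-normalized intensities. For the LUSQ arrays, the value after ± is the 95% limit given by the scanner software's own error for the spot, which covers measurement of the spot and not differences between cultures. Because these ratios chose the genes, they are given without a test.

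*CD83* had the lowest ratio of the 12547 genes in EBC-1, -3.66 ± 0.785, where the intensity was 1075 in control cells and 85.2 in transfected cells. In SK-MES-1 its ratio was -1.69 ± 0.504, from 926 to 286. The RNA was thus 12.6-fold lower in EBC-1 cells and 3.24-fold lower in SK-MES-1 cells, from similar control intensities.

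*STAC* had a ratio of -3.0 ± 0.725 in EBC-1, where the intensity was 327 in control and 40.9 in transfected cells, an 8.0-fold difference. In SK-MES-1 it was -1.20 ± 0.455, from 985 to 428, or 2.30-fold. The line with the lower control intensity had the more negative ratio.

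*CAMK2N2* had a ratio of -2.37 ± 0.587 in EBC-1, from 4311 to 832 intensity units, and of -1.82 ± 0.517 in SK-MES-1, from 1339 to 380. These were 5.18-fold and 3.52-fold differences. Its order among all genes was higher in SK-MES-1, where it was the sixth lowest, than in EBC-1, where its rank from the lowest was 44.

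*PTGFRN* had a ratio of -2.51 ± 0.612 in EBC-1, from 793 to 140, and of -1.55 ± 0.488 in SK-MES-1, from 2272 to 774. The RNA was 5.68-fold and 2.93-fold lower. As for *STAC*, the control intensity was higher in SK-MES-1 and the ratio was further from 0 in EBC-1.

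*YDJC* had the least negative ratios of the 5, -1.49 ± 0.482 in EBC-1, from 5747 to 2040, and -1.19 ± 0.453 in SK-MES-1, from 3092 to 1355. These were 2.82-fold and 2.28-fold differences. In SK-MES-1 the limits of its ratio included -1, as did those of *STAC*.

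From the processed signals, every one of the 5 was further from 0 in EBC-1 cells than in SK-MES-1 cells. The gap on the log2 scale was 1.96 for *CD83*, 1.80 for *STAC*, 0.95 for *PTGFRN*, 0.56 for *CAMK2N2* and 0.30 for *YDJC*. The array-wide background differed in the same direction: of the probes well above background in at least 1 channel, 5.35% were below -1 in EBC-1 cells and 1.56% in SK-MES-1 cells, while 6.77% and 3.89% were above 1, and 0.461% were below -1 on both arrays. Of the 47 genes below -1 on both, ordered by the mean of both ratios, *CD83* was the second, *STAC* the fourth, *CAMK2N2* the fifth, *PTGFRN* the seventh and *YDJC* the 32nd. The threshold fell close to *YDJC*, at -1.19 in SK-MES-1. Just outside it were *RCAN3*, at -1.77 in EBC-1 cells and -0.99 in SK-MES-1, and *FBXO36*, at -1.08 and -0.99.

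**Figure D1:**
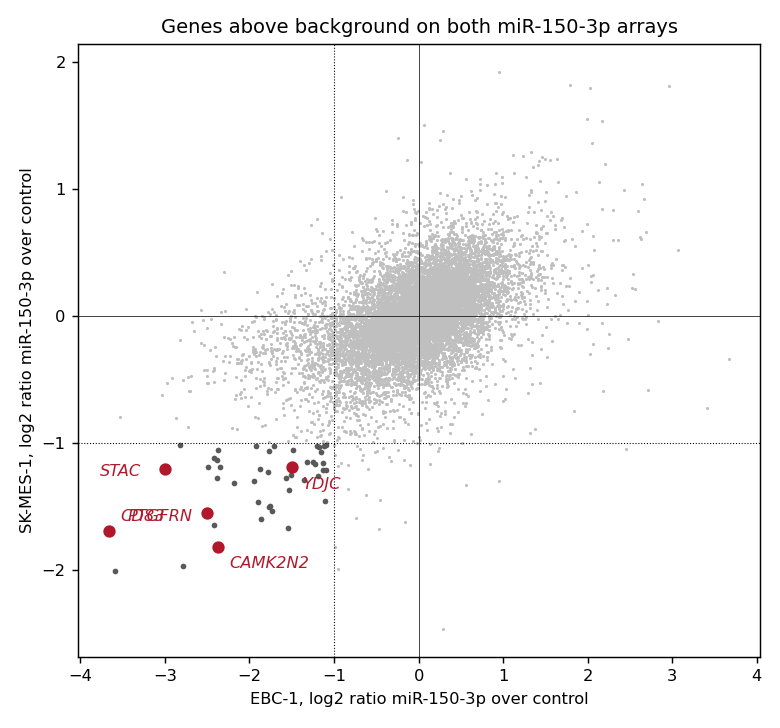
Log2 ratio of *miR-150-3p* transfected over control cells in EBC-1 (horizontal) and SK-MES-1 (vertical) for 12547 genes (grey), each with both channels of both arrays well above background. Dotted lines mark -1, dark points are the other 42 genes below it on both, and the 5 named genes (red) lie in the same corner, with *CD83* farthest left and *YDJC* nearest the dotted lines.

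The size of these ratios depended on the processing. With the normexp background correction of median signals, an offset of 50 intensity units in both channels and loess within each array, *CD83* in EBC-1 was at -1.77, *PTGFRN* at -1.13 and *STAC* at -0.70, and *STAC* in SK-MES-1 was at -0.85, so that 4 of 5 genes remained below -1 on both arrays. The transfected intensity of these 3 genes in EBC-1 was between 40.9 and 140 units. *CAMK2N2*, with 832 units, was at -1.90, and *YDJC*, with 2040, at -1.30. *CD83* was thus no longer the lowest of the 5 genes in EBC-1, as *CAMK2N2* lay below it. With normexp *PTGFRN* was at -1.28 in SK-MES-1. The order of the lines thus reversed for *STAC* and *PTGFRN*, which were then further from 0 in SK-MES-1 than in EBC-1.

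**Figure D2:**
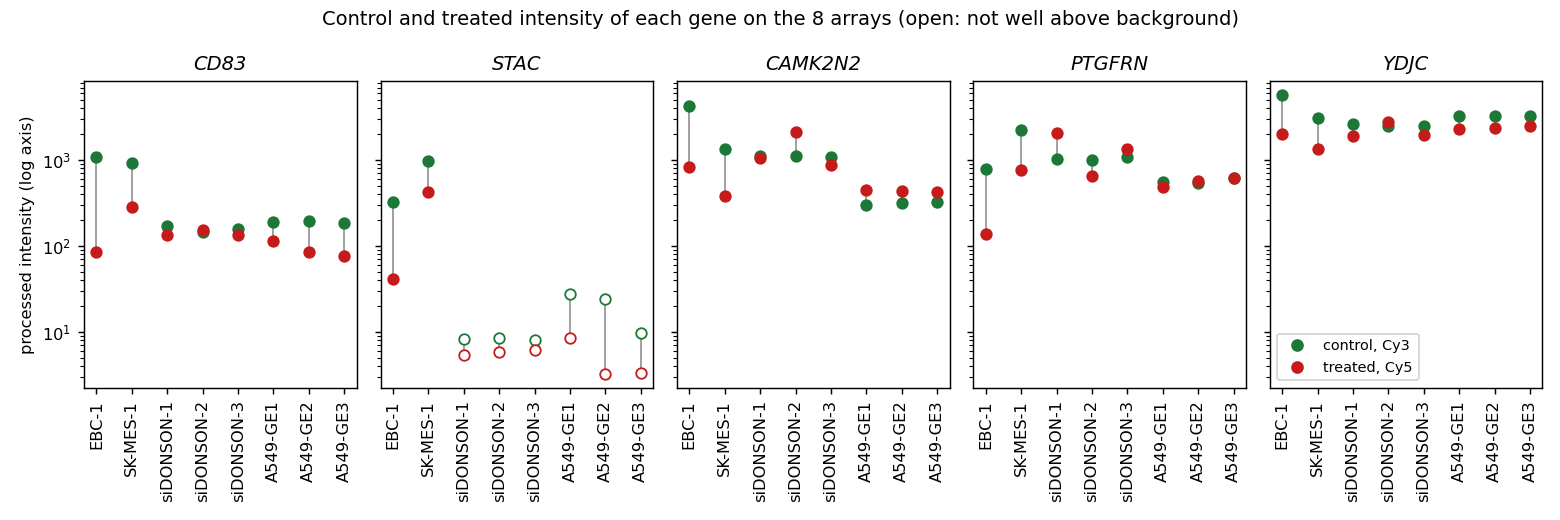
Processed intensity (log axis) of control cells (green) and treated cells (red) for each gene on each array, joined by a line. Open points were not well above background. In the first 2 arrays red lies below green for every gene, and on the 6 others *STAC* has open points only.

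The 6 remaining arrays were not used to choose the genes. They were tested with limma across all probes, each group's mean ratio against 0, with Benjamini-Hochberg adjustment and a threshold of 0.05. A probe was tested in a group when at least 1 channel was well above background on at least 2 of its 3 arrays. *STAC* did not pass this filter in SBC-3 or in A549, so 4 of the 5 genes were tested. Its intensity was 8.02 to 27.9 in control cells and 3.25 to 8.56 in treated cells on these arrays, not well above background in either channel on any of them, and its ratios there are not interpreted.

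In SBC-3 transfected with siDONSON, none of the 4 tested genes passed limma's test, and none had an unadjusted p under 0.05. Over all probes, 2.01% were called lower and 2.69% higher, and 7667 of 28716 had an unadjusted p under 0.05 in limma. *DONSON* itself was called (adjusted p = 0.0103, limma), but not without siDONSON-1, siDONSON-3, A549-GE2 or A549-GE3 (0.0501 to 0.066). *CD83* had log2 ratios of -0.36 with siDONSON-1, 0.10 with siDONSON-2 and -0.22 with siDONSON-3, a mean of -0.16 (95% interval -0.51 to 0.19, adjusted p = 0.515, limma). Its control intensities were 170, 145 and 159. The arrays lay on both sides of 0, and without 1 array the mean ranged from -0.29 to -0.06.

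*YDJC* had ratios of -0.50, 0.15 and -0.35 on the siDONSON-1, siDONSON-2 and siDONSON-3 arrays, a mean of -0.23 (-0.56 to 0.10, adjusted p = 0.317, limma). Its control intensities were 2666, 2486 and 2521. As for *CD83*, the siDONSON-2 array was the one above 0, and without 1 array the mean ranged from -0.42 to -0.10.

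*CAMK2N2* had ratios of -0.07, 0.95 and -0.32 on the same arrays, from control intensities of 1126, 1103 and 1087, with a mean of 0.19 (-0.39 to 0.77, adjusted p = 0.647, limma). *PTGFRN* had ratios of 1.01, -0.61 and 0.31, from control intensities of 1035, 1011 and 1096, with a mean of 0.24 (-0.45 to 0.93, adjusted p = 0.626, limma). *CAMK2N2* was highest with siDONSON-2 and *PTGFRN* with siDONSON-1. The sign of the mean rested on that 1 array in each case: without siDONSON-2 the mean of *CAMK2N2* was -0.20, and without siDONSON-1 that of *PTGFRN* was -0.15. The control intensities of both genes varied little between the 3 arrays, so the spread lay in the treated channel. Over all probes too, the standard deviation of log2 differences between 2 of these arrays was 0.112 to 0.129 in green and 0.368 to 0.503 in red.

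**Figure D3:**
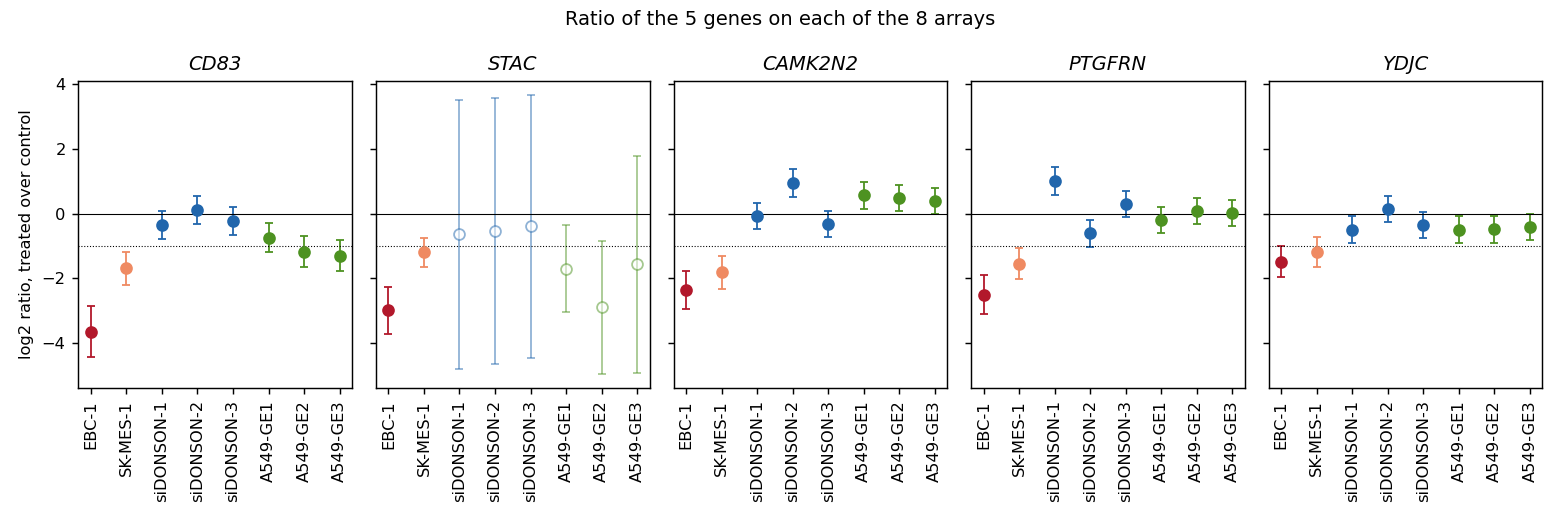
Log2 ratio of treated over control cells for the 5 genes on the 8 arrays, with bars for the 95% limit of the software's spot error. Open points were not well above background in either channel, and the dotted line marks -1. All 5 genes lie below -1 on the EBC-1 and SK-MES-1 arrays, and *CD83* is below 0 on all 3 A549 arrays.

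In A549 cells with edited *LOXL2*, *CD83* was the 1 of 4 tested genes that passed limma's test, and it was lower, against 5.07% of all probes called lower and 6.78% called higher. Its control intensities were 191, 194 and 187 and its intensities in edited cells 114, 85.8 and 75.7 on A549-GE1, A549-GE2 and A549-GE3. The ratios were -0.74, -1.17 and -1.30, all below 0. The mean was -1.07 (SE 0.145, 95% interval -1.43 to -0.72, adjusted p = 0.0142, limma), or 2.10-fold lower. This call did not hold without A549-GE1 (adjusted p = 0.0571), without A549-GE2 (0.0948), without A549-GE3 (0.0831) or with all 8 arrays in the limma fit (0.0735), while the estimate stayed between -1.24 and -0.96. The call of *LOXL2* itself did not hold either without any 1 of the 3 A549 arrays (adjusted p = 0.0552 to 0.068, limma). With the normexp correction the estimate was -0.39, with an adjusted p of 0.00217 in limma.

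*YDJC* had ratios of -0.50, -0.49 and -0.41 on the 3 A549 arrays, from control intensities of 3257, 3299 and 3290 to 2311, 2352 and 2468 in edited cells. All were below 0 and close together, with a mean of -0.47 (-0.80 to -0.14, adjusted p = 0.0773, unadjusted p = 0.0134, limma), which did not pass. *CAMK2N2* had ratios of 0.57, 0.48 and 0.39, from control intensities of 301, 314 and 326 to 447, 438 and 426, with a mean of 0.48 (-0.10 to 1.06, adjusted p = 0.233, limma). Both genes passed in a fit without siDONSON-2 (adjusted p = 0.0218 for *YDJC* and 0.029 for *CAMK2N2*, limma) and in a fit of the A549 arrays alone (0.0215 and 0.0253). In the fit of 6 arrays the spread of a gene is shared with the siDONSON arrays, where both genes varied more.

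*PTGFRN* had ratios of -0.19, 0.08 and 0.02 in edited A549 cells, from control intensities of 560, 542 and 618 to 492, 571 and 626. The values lay on both sides of 0, with a mean of -0.03 (-0.72 to 0.66, adjusted p = 0.959, limma).

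The difference between both treatments was tested in the same fit, as the mean ratio with siDONSON minus that with *LOXL2* editing. None of 4 genes passed the adjusted threshold in limma, while 3.1% of all probes were called. An unadjusted p under 0.05 in limma was found for 1 of them, *CD83*, beside 6186 of all 26578 probes tested. For *CD83* the difference was 0.91 (0.41 to 1.41, adjusted p = 0.0713, unadjusted p = 0.00421, limma), and it passed when the test was limited to probes with both channels well above background (adjusted p = 0.0434) or with the normexp correction (0.0191). It was 0.23 for *YDJC* (-0.23 to 0.70), -0.29 for *CAMK2N2* (-1.11 to 0.53) and 0.27 for *PTGFRN* (-0.71 to 1.24), with adjusted p of 0.521, 0.656 and 0.742 in limma. Without 1 array the difference ranged from 0.04 to 0.36 for *YDJC* and from -0.67 to -0.04 for *CAMK2N2*. The lower *CD83* ratio in A549 was therefore not shown to be particular to that treatment at the threshold used, and cell line and treatment cannot be told apart.

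**Figure D4:**
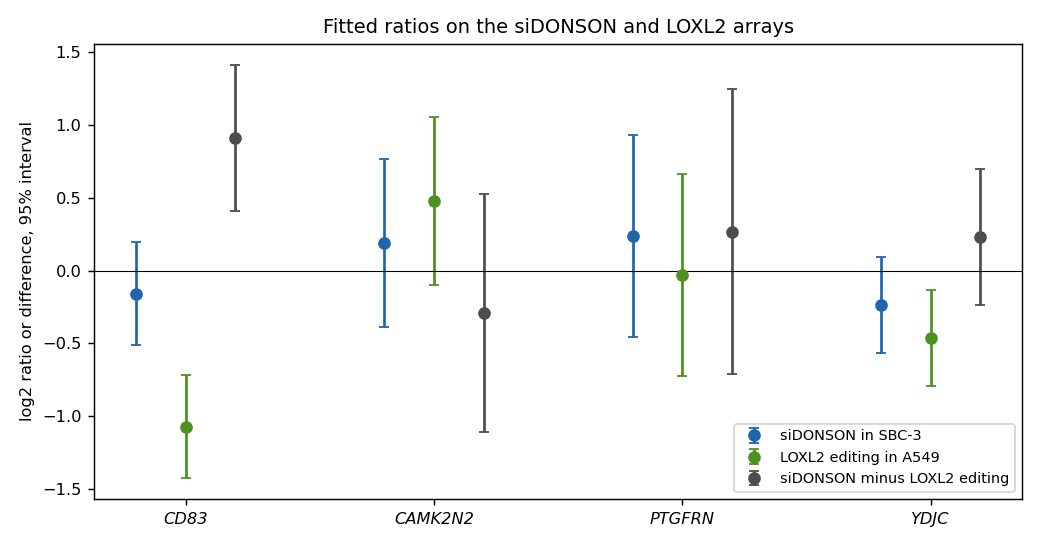
Mean log2 ratio of the 4 tested genes on the 3 siDONSON arrays (blue) and the 3 *LOXL2* arrays (green), and their difference (grey), with 95% intervals from limma. The *CD83* interval on the *LOXL2* arrays, -1.43 to -0.72, is the farthest from 0 of the intervals of the 2 treatments, and those of *CAMK2N2* and *PTGFRN* include 0.

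The level of the genes in control cells was read from the green channel, as the log2 intensity above the 75th percentile of the array, and compared between lines gene by gene. The LUSQ levels are part of the ratios that chose the genes and are given as a description. *CD83* was at 1.80 in EBC-1 cells and 1.65 in SK-MES-1, against -0.98 ± 0.035 in SBC-3 and -0.72 ± 0.055 in A549 (SD, n = 3 arrays each). *STAC* was at 0.09 in EBC-1 cells and 1.74 in SK-MES-1 and was not well above background in the other lines. A limit for each of these lines was the lowest intensity well above background on each array, averaged over its 3 arrays on the log2 scale. Against the SBC-3 limit *STAC* was 8.46-fold higher in EBC-1 and 26.6-fold higher in SK-MES-1. Against the A549 limit it was 11.9-fold and 37.5-fold higher. For A549-GE1 the *STAC* control intensity, 27.9, was used, because it exceeded that array's lowest such intensity, 26.4. The limits are averages over arrays, so these values are not strict minima. *CAMK2N2* was at 3.81 in EBC-1, 2.19 in SK-MES-1, 1.83 ± 0.070 in SBC-3 and 0.003 ± 0.037 in A549. These 3 of 5 genes were higher in both LUSQ lines than on all 6 other arrays, which was so for 20.7% of the probes detected in both LUSQ lines.

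*PTGFRN* was at 2.95 in SK-MES-1, 1.75 ± 0.090 in SBC-3, 1.36 in EBC-1 and 0.87 ± 0.070 in A549, so that EBC-1 lay between the other lines. *YDJC* was at 4.22 in EBC-1, at 3.39 in both SK-MES-1 and A549 (± 0.029 there) and at 3.04 ± 0.035 in SBC-3. SK-MES-1 and A549 did not differ beyond the spread of the A549 arrays for this gene. More RNA per cell and more cells that hold the RNA cannot be told apart in these cultures.

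**Figure D5:**
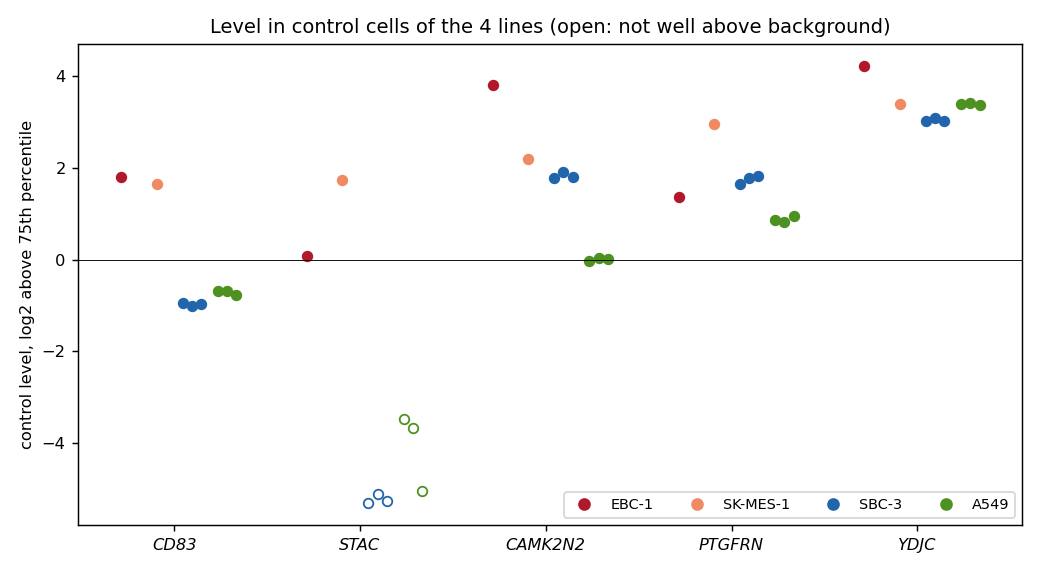
Level in control cells, as log2 intensity above the 75th percentile of the array, for each gene in the 4 lines, with 1 point an array. Open points were not well above background. *CD83*, *STAC* and *CAMK2N2* are higher in EBC-1 and SK-MES-1 than on every SBC-3 and A549 array, and levels are to be compared within a gene only.

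The levels of the 2 lines that had no part in the choice could be tested. All 4 genes that were measured in both differed between control SBC-3 and control A549 in limma, where 40.1% of all probes were lower and 38.7% higher in SBC-3. *CAMK2N2* was 3.54-fold higher in SBC-3 (log2 difference 1.82, SE 0.0632, adjusted p = 3.85e-06, limma) and *PTGFRN* 1.84-fold higher (0.88, SE 0.0753, adjusted p = 0.000138). *YDJC* was lower in SBC-3 by a log2 difference of -0.35 (SE 0.0544, adjusted p = 0.00172, limma) and *CD83* by -0.27 (SE 0.0592, adjusted p = 0.00804). With the normexp correction the *CD83* difference was -0.02 and did not pass (adjusted p = 0.378, limma), while *CAMK2N2* was at 1.02, *PTGFRN* at 0.40 and *YDJC* at -0.55 and passed. With quantile normalization *YDJC* was at -0.14 (adjusted p = 0.00822, limma). The labels do not say whether the 3 controls of a line are separate cultures or 1 RNA, so these p-values measure only the spread between arrays.

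Relatives and partners of the 5 genes were read on the same arrays from fixed lists. No probe of the 5 lists that was above background in at least 1 channel was below -1 on either LUSQ array, beside 5.35% and 1.56% of all probes. For CaMKII, 3 of 5 listed genes were measured in each LUSQ line. The median over 5 probes was -0.03 in EBC-1 cells and -0.08 in SK-MES-1, beside medians of all probes of 0.08 and 0.03. Within this list, the probes of the kinase gene *CAMK2D* were at 0.96 and 0.71 in EBC-1 cells (software errors 0.244 and 0.33). In SK-MES-1 they were at -0.28 and -0.08. *CAMK2N1*, which encodes the other CaMKII inhibitor, was at -0.03 and -0.07, each with a software error of 0.204, where *CAMK2N2* was at -2.37 and -1.82. In edited A549 cells 1 of 2 probes of the kinase subunit gene *CAMK2G* was lower (-0.67, adjusted p = 0.0354, limma), and its other probe was at -0.33 (adjusted p = 0.0521). The call did not hold without any 1 array other than siDONSON-2 (adjusted p = 0.0507 to 0.153, limma).

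Of the 10 listed relatives of *STAC* and calcium channel subunits, 3 were measured in EBC-1 with a median of 0.12, and 5 in SK-MES-1 with a median of -0.13. The relative *STAC3* was at 0.06 in EBC-1 cells and -0.53 in SK-MES-1. *CACNA1S*, a channel subunit gene of skeletal muscle, was at 1.58 in SK-MES-1 with a software error of 0.868, from green not well above background. In edited A549 cells the channel subunit gene *CACNB3* was lower (-0.52, adjusted p = 0.0251, limma) and *CACNA1D* was higher (1.23, adjusted p = 0.0414), the latter well above background in green on 1 of 3 arrays. Neither call held without any 1 of the A549 arrays (adjusted p = 0.0721 to 0.181, limma).

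Of the 10 listed partners of *CD83*, 8 were measured in each LUSQ line, with medians of 0.31 in EBC-1 cells and 0.03 in SK-MES-1. *CD86*, a costimulatory ligand, was at 0.005 in EBC-1 cells and -0.16 in SK-MES-1, with a software error of 0.206 on each. It was lower with siDONSON (-0.90, adjusted p = 0.0275, limma) and in edited A549 cells (-0.51, adjusted p = 0.04, limma), the latter being the comparison in which *CD83* was lower too. Its call with siDONSON did not hold without any 1 array other than siDONSON-2 (adjusted p = 0.067 to 0.0951, limma), nor that in A549 without siDONSON-3 (0.0584) or any 1 A549 array (0.155 to 0.196). *MARCHF1* was not above background on either LUSQ array. Of 6 leukocyte markers 3 had a probe well above background in green in EBC-1 cells and 3 in SK-MES-1, and 2 did on all 3 arrays of SBC-3 and of A549, while *LYZ* had no probe named. *PTPRC* was counted through different probes in EBC-1 and SK-MES-1, and its other probes were not well above background in green on any array. *CD14* was at 1.69 in EBC-1, where *CD83* was lowest, and at 0.16 in SK-MES-1. With siDONSON it was at 0.60 (adjusted p = 0.0372, limma), a call that did not hold without any 1 of the 6 arrays (0.0539 to 0.0961). Green was not well above background for *CD14* on any SBC-3 array, and with normexp its estimate there was 0.002 (adjusted p = 0.983, limma). Whether leukocyte genes have a part in the *CD83* level was not tested.

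Of the 8 listed relatives and partners of *PTGFRN*, 6 were measured in EBC-1 cells and 7 in SK-MES-1, with medians of -0.05 and 0.03. The tetraspanin genes *CD9* and *CD81* ranged from -0.29 to 0.01 over both lines. *CD9* was lower in edited A549 cells (-0.71, adjusted p = 0.0255, limma), as was 1 of 3 probes of the relative *IGSF3* (-0.57, adjusted p = 0.0206), while the other probes of *IGSF3* were at 0.23 and -0.23. Neither call held without any 1 of the A549 arrays (adjusted p = 0.0791 to 0.157, limma).

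Of the 6 genes listed near *YDJC* on its chromosome, 5 were measured in each LUSQ line, with medians of -0.05 and -0.09. Its direct neighbour *UBE2L3*, a ubiquitin-conjugating enzyme gene, was at -0.15 in EBC-1 cells and -0.07 in SK-MES-1, and the neighbour on the other side, *CCDC116*, was not above background. *SDF2L1*, a gene of the endoplasmic reticulum, was at -0.38 and -0.39 there and was lower with siDONSON (-1.84, adjusted p = 0.0114, limma), where *YDJC* was at -0.23. That call did not hold without siDONSON-1, siDONSON-3, A549-GE2 or A549-GE3 (adjusted p = 0.0501 to 0.0634, limma).

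The genes whose ratios over all 8 arrays came closest to each of the 5 were found by the root mean square difference of log2 ratios among 11211 genes with both channels of all 8 arrays well above background. *YDJC* had the closest ones, *HIP1* at 0.230 and *ASMTL* at 0.250. For *PTGFRN* they were *CTDSPL*, which encodes a phosphatase, at 0.364 and *MFN2*, a mitochondrial fusion gene, at 0.384. For *CAMK2N2* they were *ARHGAP1* at 0.379 and *IMMP2L*, a mitochondrial protease subunit gene, at 0.428. *CD83* had no gene as near, the closest being *LOC730101* at 0.608 and the cohesion regulator *CDCA5* at 0.683. *CDCA5* was at -3.53 in EBC-1, near *CD83*, but at -0.79 in SK-MES-1 and at -0.20, -0.16 and -0.15 on the A549 arrays, where *CD83* was lower. *STAC* had no such value, being not well above background on 6 of the arrays. This is a description over arrays that differ in cell line and treatment together. The distances include the LUSQ ratios that chose the 5 genes, so they rest in part on that choice and are no separate evidence. *LOC730101*, *ARHGAP1*, *IMMP2L*, *MFN2* and *ASMTL* were themselves below -1 on both LUSQ arrays.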

How the data were processed

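Total RNA of EBC-1, SK-MES-1, SBC-3 and A549 cells was hybridised to 2-colour Agilent arrays (design 072363, annotated on hg19). The deposited intensity values are the Feature Extraction 12.1.1.1 processed signals, background-subtracted and dye-normalized by the authors' scanner software, and the deposited log10 ratios and their errors come from the same signals. The series value table deposited by the authors held the same log10 ratios. Control spots and spots marked as outliers or non-uniform were left out, spots of 1 probe were averaged, and log2(red/green) was computed for 58201 probes, of which 31104 were named through their accession. Groups were taken from the labels. Log2 values were tested with limma 3.58.1 in R 4.3.3 (lmFit, eBayes, two-sided), with the siDONSON and *LOXL2* arrays in 1 fit with a mean per group, and green levels, minus the 75th percentile of the array, in a second fit. The fits were tested on simulated data. The precision is limited by the number of arrays, and p-values measure only the spread between these arrays, which may be technical. Alternatives were normexp (offset 50) on median signals, since the files used hold no mean signal, with loess, median centring, quantile normalization of green, other filters, other sets of arrays, the number in the labels as a block, and leaving out each array. The members and lists were chosen with earlier results of these data known. Genes named are the 5 genes, the 2 nearest to each over the arrays, *DONSON* and *LOXL2*, markers, and list members past 1 or -1 or called. Relatives shown for comparison were chosen after their values were seen (*CAMK2D*, *CAMK2N1*, *STAC3*, *CD81*, *UBE2L3*, *CCDC116*, *MARCHF1*). The study picked targets of *miR-150-3p* on these arrays, so that list is no independent evidence and was not used. Sequences were not analysed here.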

Additional observations from a re-analysis of the deposited data

How the results depend on the processing

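The number of the 5 genes below -1 on both LUSQ arrays was 3 with a threshold of -1.5 and 3 after subtracting the mean over the 6 other arrays, which turned *STAC* in SK-MES-1 to 0.092, from arrays where it is not well above background, and *YDJC* there to -0.84. The number called with *LOXL2* editing, 1, was 0 with all 8 arrays, 3 with the group's arrays alone, 2 with no filter on dim probes, 2 with normexp and 0 to 3 over the fits without 1 array. The gene added with no filter was *STAC*, which is not well above background in A549 and is not interpreted there. The gene added with normexp was *YDJC* (adjusted p = 0.0326, limma). The number called for the difference between both treatments, 0, was 1 with both channels well above background and 1 with normexp. Over the fits without 1 array the mean of *CAMK2N2* with siDONSON ranged from -0.20 to 0.44, that of *PTGFRN* from -0.15 to 0.66 with siDONSON and from -0.083 to 0.048 with *LOXL2* editing, and its difference from -0.12 to 0.69. With normexp *PTGFRN* was at 0.012 with *LOXL2* editing. Of the single values under alternatives, 293 kept their direction and side of the threshold or, untested, moved by less than their error. Another 15 moved by more, 6 changed sign, 7 passed newly and 5 no longer passed. Part of the 293 could not have moved, because each gene has 1 probe without marked spots. Averaging probes or keeping marked spots then returns the same ratio, so the count is no measure of stability. The numbers in the labels did not pair the arrays (correlations of deviations -0.00847, -0.0199 and -0.0109). With the replicate block *CD83* kept its call with *LOXL2* editing (adjusted p = 0.0489, limma), and no call of the 5 genes changed, while the called relatives and partners lost theirs (0.0538 to 0.0942). Over all probes, limma called 1350 with siDONSON, but 0 with the replicate block, with the group alone and without siDONSON-1, siDONSON-3, A549-GE2 or A549-GE3 (4938 to 7381 at an unadjusted p under 0.05) and up to 12277 with no filter. It called 3734 with *LOXL2* editing (113 to 16862 over the alternatives), 823 for the difference (9 to 3539) and 21545 between controls (17388 to 38246). The share called higher was 57.3% with siDONSON and 43.9% after median centring, and 49.1% between controls and 59.4% with normexp. *STAC* is limited by its signal outside the LUSQ lines, and the LUSQ ratios by 1 array a line.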
